A study of Homo sapiens and Mus musculus with 8 samples.

Results

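The replication-dependent histone genes of K562 cells are described here, that is the protein-coding genes of the K562 table whose symbol begins with HIST1H, HIST2H, HIST3H or HIST4H, in current names H1-1 to H1-6, H2AC, H2BC, H3C and H4C with a number, and H3-4. Of 35141 genes in the table, 67 met this rule by name, and 63 of them had a mean above 0 FPKM (fragments scaled to exon length and to the reads of the library). H4C6, H3C8, H4C13 and H4C16 were at 0 in all 4 libraries. The 63 genes comprised 6 H1, 15 H2A, 18 H2B, 12 H3 and 12 H4 genes, 49 on chromosome 6 and 14 on chromosome 1. K562 is a human chronic myeloid leukemia (CML) line that expresses BCR-ABL. Its cells were cultured as control, without further description in the labels, or with JOA (Jiyuan oridonin A, an ent-kaurene diterpenoid) at 2 μM for 48 h, and 2 libraries were made per condition with TruSeq Stranded mRNA chemistry, which captures RNA by its poly(A) tail. A mouse line, BaF3-T315I, makes up the other 4 of the 8 libraries and was not used, since its table holds identifiers of another species. No source states that replicates came from separate cultures, so a p-value here measures only the spread between these libraries.

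Core histones H2A, H2B, H3 and H4 form the protein spool of the nucleosome, and linker histone H1 binds the DNA that enters and leaves it. Replication-dependent genes supply these proteins in S phase. They lie in clusters, carry almost no introns, and are transcribed in nuclear bodies organised by NPAT. Their mRNA usually ends not in a poly(A) tail but in a short stem-loop bound by SLBP, after cleavage guided by the U7 small nuclear ribonucleoprotein. Several of these genes also give polyadenylated transcripts that run past the stem-loop, a form known from differentiating and non-dividing cells. A poly(A)-selected library therefore samples the tailed form better than the usual form, and the values below are levels of captured RNA, not of total histone mRNA.

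The gene models carried both kinds of end. In GENCODE 29 transcripts (GRCh38), a histone stem-loop of 16 bases was found in 30 of the 63 genes (47.6%), against 59 of 17196 other protein-coding genes (0.343%). A poly(A) signal (AATAAA or ATTAAA) lay within the last 40 bases of a transcript in 22 of the 63 (34.9%), against 14990 of 17196 others (87.2%). The models of 27 genes, H1-2 and H2BC12 among them, hold the coding part only, so their ends cannot be read from these models. The stem-loops of genes named below are shown with the stem and loop in capitals and 5 bases on either side, because this element sets the usual end of the mRNA. The most common form was shared by 17 genes, H2AC6 and H3C10 among them, and H2AC11 and H3C6 each held a form found in no other member.
H2AC6 stem-loop: ccaaaGGCTCTTTTCAGAGCCcccct
H3C10 stem-loop: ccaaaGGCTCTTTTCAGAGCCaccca
H2BC4 stem-loop: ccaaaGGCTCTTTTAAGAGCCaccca
H4C9 stem-loop: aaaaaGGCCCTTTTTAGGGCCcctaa
H2AC11 stem-loop: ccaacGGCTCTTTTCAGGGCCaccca
H3C6 stem-loop: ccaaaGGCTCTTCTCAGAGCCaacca
Transcript models of H2AC6, H3C10, H2AC11 and H3C6 run on past the stem-loop to a poly(A) signal. The last 30 bases of the H2AC6 model of 1654 bases and of the H2BC11 model, which holds no stem-loop, show that signal in capitals.
H2AC6 transcript end: agcctggcatgaggtAATAAAaggtaatgc
H2BC11 transcript end: gaataaatgAATAAAgtaatattcctctgc

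The FPKM values could be turned back into reads with the exon lengths of GENCODE 29. The libraries held 23292640 and 23005478 reads in the controls and 23112802 and 22625603 with JOA, and every read number of the 63 genes came out whole within 2.5e-06. K562 identity was checked on 10 erythroid markers, all above 10 FPKM on average, from 10.8 FPKM (HBZ) to 2352 FPKM (HBE1). Of 10 markers of T cells, monocytes and granulocytes, LYZ, CD3D and CSF3R averaged 1.16 to 21.8 FPKM and the other 7 were under 0.5 FPKM. For 9 of the 10 erythroid markers, each JOA library was below each control (18.3% of all genes tested and 38.8% of those averaging 20 FPKM or more). By the unadjusted rule given below, 8 of the markers were lower (2.38% of all genes). The sum of the 10 markers was 5350 and 5022 FPKM in the controls and 2703 and 1867 FPKM with JOA. Whether that shift has a part in the histone values was not tested. In bulk RNA, fewer cells in S phase and less histone mRNA per cell cannot be told apart.

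The summed histone mRNA was lower in the JOA cultures, and much of the difference was in 2 genes. H1-2, a linker histone found in most cell types, and H2BC12, an H2B gene of the large chromosome 6 cluster, held 70.4% and 66.9% of the summed FPKM of the 63 genes in the controls, and 62.9% and 53.8% with JOA. Together, the 63 genes summed to 2604 and 2987 FPKM in the controls and to 1721 and 1656 FPKM with JOA, so the 2 groups did not overlap and the JOA mean was 60.4% of the control mean. The exact two-sided permutation test gave p = 0.333, the smallest p that 2 libraries against 2 allow. By histone type, the JOA sum was 51.2% of control for H1, 57.98% for H2B, 75.5% for H2A, 80.1% for H3 and 90.3% for H4. The sums of H1, H2A and H2B did not overlap between groups (exact p = 0.333 each), whereas those of H3 and H4 did (exact p = 0.667 each). Without H1-2 and H2BC12, the remaining 61 genes summed to 771 and 990 FPKM in the controls and 638 and 765 FPKM with JOA. These sums still did not overlap, although JOA replicate 2 came within 1% of control replicate 1, and the JOA mean was 79.7% of control. As a share of all FPKM in a library, the 63 genes took 0.872% and 0.989% in the controls and 0.611% and 0.592% with JOA. The 61 genes without H1-2 and H2BC12 took 0.258% and 0.328% in the controls and 0.226% and 0.274% with JOA. On that scale the groups of the 61 overlapped, since JOA replicate 2 was above control replicate 1.

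**Figure D1:**
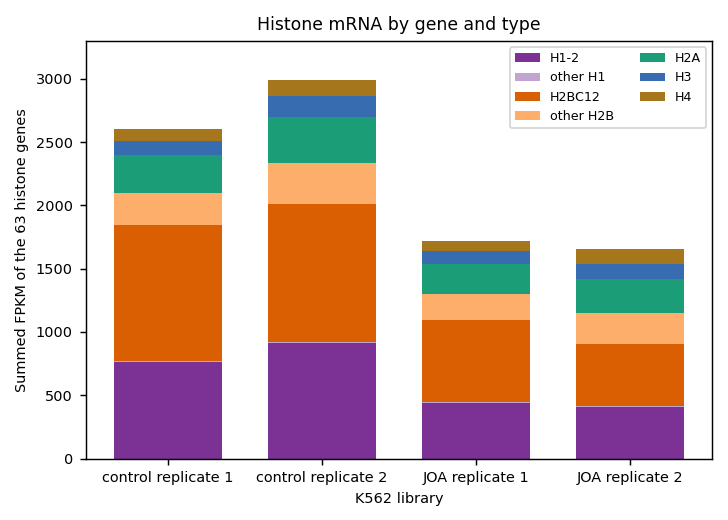
Stacked bars give the summed FPKM of the 63 histone genes in each of the 4 K562 libraries, split into H1-2, the other H1 genes, H2BC12, the other H2B genes, H2A, H3 and H4. Controls reach 2604 and 2987 FPKM and JOA libraries 1721 and 1656 FPKM, with the largest differences in the H1-2 and H2BC12 segments.

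H1-2 (chr6:26055787-26056428, minus strand, GRCh38, a model of coding sequence in a single exon) stood at 759 and 911 FPKM in the controls and at 441 and 404 FPKM with JOA. Both JOA libraries were far below both controls. The log2 fold change was -0.98 ± 0.13 (SE), from a control mean of 835 ± 108 FPKM to 423 ± 25.9 FPKM with JOA (SD, n = 2 each), with a limma adjusted p of 0.226. H2BC12 (chr6:27146418-27146798, minus strand, coding sequence only) stood at 1075 and 1086 FPKM in the controls and at 642 and 486 FPKM with JOA. Its controls were nearly equal and its JOA libraries were both lower, though apart from each other. The log2 fold change of H2BC12 was -0.95 ± 0.16 (SE), with a limma adjusted p of 0.226. Reads for H2BC12 numbered 9539 and 9519 in the controls and 5653 and 4190 with JOA, and 22.6% of its 50-base stretches also occur in another histone gene, so part of its reads could be shared. Among all genes tested, 19 had a higher mean than H2BC12 and 25 a higher mean than H1-2.

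Upstream sequences are shown for H1-2 and H2BC12, the most abundant members, for H2AC6, which shares its upstream stretch with its divergent neighbour H2BC4, and for H4C9, the most abundant H4 gene, to set promoter elements beside the values. The capitals mark every CCAAT (the CCAAT box), TATAAA (the TATA box) and ATTTGCAT (the octamer), searched on both strands, and matches of different motifs do not overlap in these 4 stretches. Each sequence is the 160 bases before the RefSeq start (GRCh38.p14), read in the direction of the gene. That start can differ from the start of the GENCODE 29 model. The H4C9 stretch lies wholly inside the H4C9 model (chr6:27138588-27139881), whose length enters its FPKM. The last bases of the H2AC6 stretch lie inside the H2AC6 model, which starts at 26124145.
H1-2 upstream, chr6:26056471-26056630, minus strand: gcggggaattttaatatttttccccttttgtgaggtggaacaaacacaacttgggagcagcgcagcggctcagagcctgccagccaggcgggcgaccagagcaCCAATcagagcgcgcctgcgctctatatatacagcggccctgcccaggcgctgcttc
H2BC12 upstream, chr6:27146856-27147015, minus strand: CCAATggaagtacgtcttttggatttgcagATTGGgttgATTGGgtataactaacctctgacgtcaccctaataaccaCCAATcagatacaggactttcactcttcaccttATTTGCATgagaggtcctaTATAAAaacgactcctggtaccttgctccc
H2AC6 upstream, chr6:26124012-26124171, plus strand: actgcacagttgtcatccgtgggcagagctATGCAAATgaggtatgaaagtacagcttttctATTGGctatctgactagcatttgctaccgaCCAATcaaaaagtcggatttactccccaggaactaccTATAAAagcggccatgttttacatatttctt
H4C9 upstream, chr6:27139122-27139281, plus strand: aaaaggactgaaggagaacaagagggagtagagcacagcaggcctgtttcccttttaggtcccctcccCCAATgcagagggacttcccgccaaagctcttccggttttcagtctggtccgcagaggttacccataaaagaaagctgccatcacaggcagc
Promoter windows of 300 bases (250 before the start and 50 after) were matched for 58 of the 63 genes. CCAAT was present in 49 of the 58 (84.5%), against 35.7% of all 27305 windows in the same table, and in every H1, H2A, H2B and H3 window but only 1 of 10 H4 windows, that of H4C9. TATAAA was present in 70.7% against 12% of all windows. ATTTGCAT was present in 10 of 14 H2A and 14 of 18 H2B windows and in no H1, H3 or H4 window, against 1.8% of all windows. A match is a description of these letters only.

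Of the 63 genes, 43 had a mean of at least 0.5 FPKM and were tested, with all genes at that level, 15635 in all. Most of these 43 were lower with JOA while most other genes were higher, except that with median-ratio scaling the median of all genes was -0.03 and with quantile scaling 0.0027. No single histone gene passed the adjusted test. On log2(FPKM + 0.5), a scale that understates differences of low genes, a call by limma needed an adjusted p under 0.05 and a log2 fold change beyond 0.58 in either direction, and there was none among the 43 and none among all 15635 genes (0%). The smallest adjusted p of a histone gene was 0.226. At an unadjusted p under 0.05, 2 of the 43 were higher and 9 lower, where 11.4% and 5.82% of all genes were. By the rule in the study's methods, an unadjusted p under 0.05 with a log2 fold change beyond 0.58 either way, 7 of the 43 (16.3%) were lower and 1 (2.33%) was higher. Over all genes tested, this rule took 372 lower (2.38%) and 841 higher (5.38%). That split turned with the scaling, to 252 lower and 1421 higher with TPM, 685 lower and 532 higher with median-ratio and 538 lower and 504 higher with quantile scaling, where the histone genes numbered 5 lower and 2 higher, 9 lower and 1 higher, and 8 lower and 0 higher. The 7 lower genes were H1-2, H1-5, H2AC6, H2AC8, H2AC20, H2BC4 and H2BC12, and the higher one was H2BC3. With a library left out, the number of higher genes moved among the histone genes and among all genes, and the sizes of these moves were not compared. The log2 fold change of H2BC3 was then 0.47 to 0.92.

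Both JOA libraries were below both controls for 18 of the 43 (41.9%, against 18.3% of all genes tested) and above both for 2, H2BC3 and H2BC6 (4.65%, against 36.8%). The other 23 overlapped. Genes below both controls numbered 12 with TPM scaling (11.2% of all genes), 20 with median-ratio scaling (30.1%) and 17 with quantile scaling (25.2%). The median log2 fold change of the 43 was -0.23, where the median of all genes tested was 0.096, and 30 of the 43 were negative, against 37.7% of all genes. With a library left out, the median of the 43 ranged from -0.43 (without control replicate 1) to -0.10 (without JOA replicate 1), and 23 of the 43 were negative without JOA replicate 1. When no filter on low values was used, 38 of 63 were negative with a median of -0.13, where the median of all genes was 0.057. The library left out moved these counts. Without JOA replicate 2, 29 were below (27.7% of all genes were, without it). Genes above numbered 14 without JOA replicate 1, where 53.3% of all genes were.

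**Figure D2:**
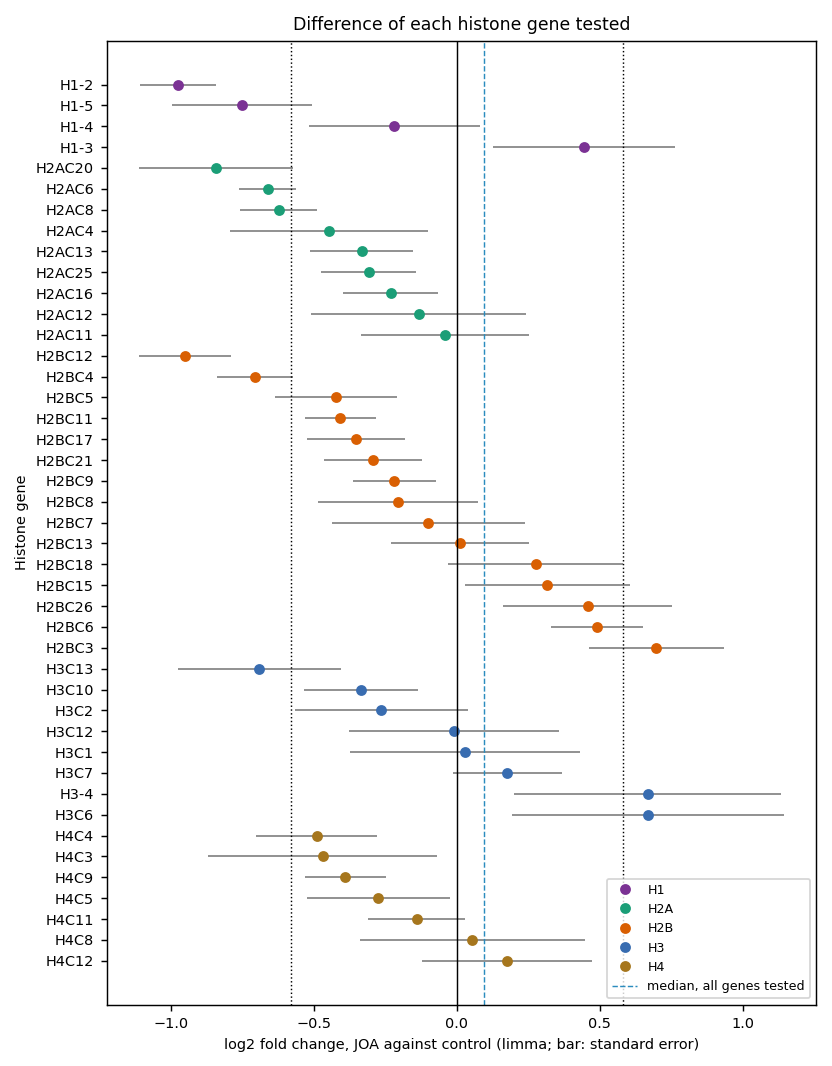
Points give the log2 fold change of JOA against control for each of the 43 histone genes tested, with the limma standard error as a bar, coloured by histone type. The dotted lines stand at 0.58 and -0.58, the dashed line is the median of all genes tested (0.096), and all 9 H2A genes lie left of 0, except that H2AC11 turned positive with TPM and quantile scaling.

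The libraries within a group also differed for these genes. Control replicate 2 was above control replicate 1 for 37 of the 43, where 50.1% of all genes tested were. JOA replicate 2 was above JOA replicate 1 for 34 of the 43, where 54.4% of all genes were. JOA replicate 1 alone was below both controls for 29 of the 43 (27.7% of all genes) and above both for 2 (47.2%). JOA replicate 2 was below both controls for 20 (30.9%) and above both for 14 (53.3%). The lower level was thus more widespread among the genes in JOA replicate 1, while H1-2 and H2BC12 were lower still in JOA replicate 2.

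The difference varied with the level of expression, among all genes tested as well as among the histone genes. Of the 15 histone genes averaging 20 FPKM or more, 14 were negative and 11 were below both controls in both JOA libraries, with a median log2 fold change of -0.35. All genes tested at that level had a median of -0.07, with 60.2% of them negative and 38.8% below both controls. The 8 histone genes from 5 to 20 FPKM had a median of -0.15, where all genes at that level had 0.08, and 1 of them, H2AC8, was below both controls (19.1% of all genes at that level). The 20 from 0.5 to 5 FPKM had a median of -0.07, where all genes at that level had 0.18. The range of log2 fold changes in this lowest class ran from -0.84 to 0.70, with 6 genes below both controls (11.1% of all genes at that level) and 2 above (40.8%).

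**Figure D3:**
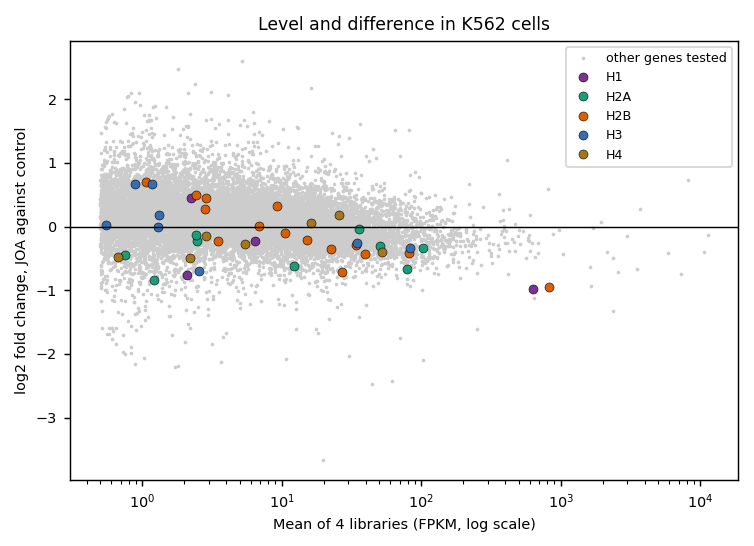
Each point is a gene tested in K562 cells, with its mean FPKM over 4 libraries on a log axis and its log2 fold change of JOA against control. The 43 histone genes are coloured by type, and the 2 at the far right, H1-2 and H2BC12, lie at -0.98 and -0.95, while the 20 under 5 FPKM spread from -0.84 to 0.70.

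Linker histones were carried almost wholly by H1-2. The next H1 gene, H1-4, stood at 6.72 and 6.86 FPKM in the controls and at 4.13 and 7.97 FPKM with JOA, and its groups overlapped. H1-5 was at 2.14 and 3.38 FPKM in the controls and 1.59 and 1.23 FPKM with JOA. Both JOA values lay below both controls, from 34 and 53 reads to 25 and 19, and the log2 fold change was -0.75 ± 0.24 (SE), or -0.47 without control replicate 2, with a limma adjusted p of 0.266. H1-3 was at 1.87 and 1.63 FPKM in the controls and 1.75 and 3.65 FPKM with JOA. Its groups overlapped, with 1 high JOA library, and the log2 fold change was 0.44 ± 0.32 (SE, limma adjusted p = 0.472), or 0.0042 without JOA replicate 2. H1-1 and H1-6, the latter known from the male germ line, had under 0.5 FPKM on average. The median of the 4 H1 genes tested was -0.49.

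The log2 fold change was negative for all 9 H2A genes tested (median -0.33), except that H2AC11 turned positive with TPM and quantile scaling, and 5 of them were below both controls in both JOA libraries (18.3% of all genes were). The most abundant, H2AC13, was at 99.1 and 131 FPKM in the controls and 82.1 and 99.4 FPKM with JOA. JOA replicate 2 just exceeded control replicate 1, so the groups overlapped (log2 fold change -0.33 ± 0.18, or -0.13 without control replicate 2, limma adjusted p = 0.375), and 62.3% of its 50-base stretches occur in another histone gene. H2AC6 was at 95.9 and 97.8 FPKM in the controls and 64.0 and 58.1 FPKM with JOA. Its replicates lay close together in both groups and the groups were well apart. The log2 fold change was -0.66 ± 0.10 (SE) with a limma adjusted p of 0.226, and few of its 50-base stretches (0.421%) are shared with another histone gene.

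H2AC8 was at 14.6 and 15.3 FPKM in the controls and 10.5 and 8.60 FPKM with JOA. These groups did not overlap either (log2 fold change -0.62 ± 0.13, limma adjusted p = 0.236). H2AC20, of the HIST2 cluster on chromosome 1, was at 2.09 and 1.34 FPKM in the controls and 0.888 and 0.567 FPKM with JOA. Both JOA values were lower, but they rested on 8 and 5 reads against 19 and 12, with a log2 fold change of -0.84 ± 0.27 (limma adjusted p = 0.264). The smallest difference was that of H2AC11, at 27.2 and 47.0 FPKM in the controls and 30.4 and 39.6 FPKM with JOA. Its JOA values lay between the control values (log2 fold change -0.04 ± 0.29), and the sign turned without control replicate 2 (0.35), without JOA replicate 1 (0.15), and with TPM (0.05) or quantile (0.0062) scaling. The median of the 9 was -0.13 without JOA replicate 1 and -0.19 without control replicate 2.

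The 15 H2B genes tested were divided. Of the 9 with a negative log2 fold change, 7 were below both controls in both JOA libraries (18.3% of all genes were), and of the 6 with a positive one, 2 were above both (36.8%). The median was -0.21, and it was 0.09 without control replicate 2 and 0.07 without JOA replicate 1. After H2BC12, the most abundant were H2BC11, H2BC5, H2BC21, H2BC4 and H2BC17, with means from 22.4 to 81.8 FPKM. In each of the 5 both JOA libraries were below both controls, where 38.8% of all genes averaging 20 FPKM or more were. Of the 15 H2B genes, 4 were below both with TPM, 7 with median-ratio and 5 with quantile scaling. Under these scalings 11.2%, 30.1% and 25.2% of all genes were. H2BC4 was at 30.5 and 37.3 FPKM in the controls and 19.8 and 21.2 FPKM with JOA. Its groups were well apart, with a log2 fold change of -0.71 ± 0.13 (SE) and a limma adjusted p of 0.236.

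H2BC11 was at 84.8 and 102 FPKM in the controls and 69.5 and 70.6 FPKM with JOA. It was lower in both JOA libraries and under the fold of the rule (log2 fold change -0.41 ± 0.12, limma adjusted p = 0.262). The highest H2B log2 fold change was that of H2BC3, at 0.676 and 0.685 FPKM in the controls and 1.14 and 1.74 FPKM with JOA. Both JOA values were higher, from 6 reads in each control to 10 and 15 reads, with a log2 fold change of 0.70 ± 0.24 (limma adjusted p = 0.270). With a pseudocount of 1 FPKM, or without the filter on low values, it no longer passed the unadjusted rule. H2BC6 was at 1.71 and 2.15 FPKM in the controls and 2.85 and 2.96 FPKM with JOA, above both controls, with a log2 fold change of 0.49 ± 0.16 (limma adjusted p = 0.266). A gene of the opposite strand overlaps the models of H2BC6 and of H2BC18, while H2AC16, of the same strand, overlaps that of H2BC15. Whether the counting kept the strands apart was not checked, so the reads of H2BC6 are not certain to be its own.

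H3 genes showed no common direction. Of the 8 tested, 4 were negative and 4 positive, with a median of 0.0084, and 2 were below both controls (18.3% of all genes were). The median ranged from -0.19 without JOA replicate 2 to 0.19 without control replicate 2, and was 0.13 with TPM, -0.08 with median-ratio and -0.17 with quantile scaling. H3C10, the most abundant, was at 75.8 and 111 FPKM in the controls and 70.1 and 75.0 FPKM with JOA. JOA replicate 2 stood just under control replicate 1, so the groups were separate by a narrow gap (log2 fold change -0.34 ± 0.20, or -0.06 without control replicate 2, limma adjusted p = 0.405). H3C13, in the HIST2 cluster, was at 2.92 and 3.49 FPKM in the controls and 1.26 and 2.47 FPKM with JOA. Both JOA values were lower, with 12 and 23 reads against 28 and 33 (log2 fold change -0.69 ± 0.29, or -0.31 without JOA replicate 1, limma adjusted p = 0.305). H3C6 was at 0.337 and 0.714 FPKM in the controls and 0.549 and 1.95 FPKM with JOA. A single high library, JOA replicate 2 with 118 reads, set its log2 fold change of 0.67 ± 0.48 (limma adjusted p = 0.468), which was 0.06 without that library. H3-4 had a like pattern, at 0.714 and 0.723 FPKM in the controls and 0.720 and 2.57 FPKM with JOA.

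For H4, the sums of the groups overlapped while most genes tested were negative. Of the 7 tested, 5 were negative and 2 positive, with a median of -0.27, and 2 were below both controls (18.3% of all genes were). H4C9, the most abundant, was at 52.6 and 66.3 FPKM in the controls and 43.8 and 46.1 FPKM with JOA. It was lower in both JOA libraries and under the fold of the rule (log2 fold change -0.39 ± 0.14, or -0.22 without control replicate 2, limma adjusted p = 0.279). H4C4 was at 2.75 and 2.51 FPKM in the controls and 1.39 and 2.12 FPKM with JOA. Both JOA values were lower, on 10 and 15 reads against 20 and 18 (log2 fold change -0.49 ± 0.21, or -0.25 without JOA replicate 1, limma adjusted p = 0.313). H4C12 was at 20.5 and 26.6 FPKM in the controls and 19.97 and 35.0 FPKM with JOA. The JOA libraries lay on either side of the controls, and the log2 fold change of 0.18 ± 0.30 turned negative without control replicate 1 (-0.0084) or without JOA replicate 2 (-0.22). Every 50-base stretch of the H4C12 model also occurs in another histone gene, as do 81.2% of those of H4C11.

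**Figure D4:**
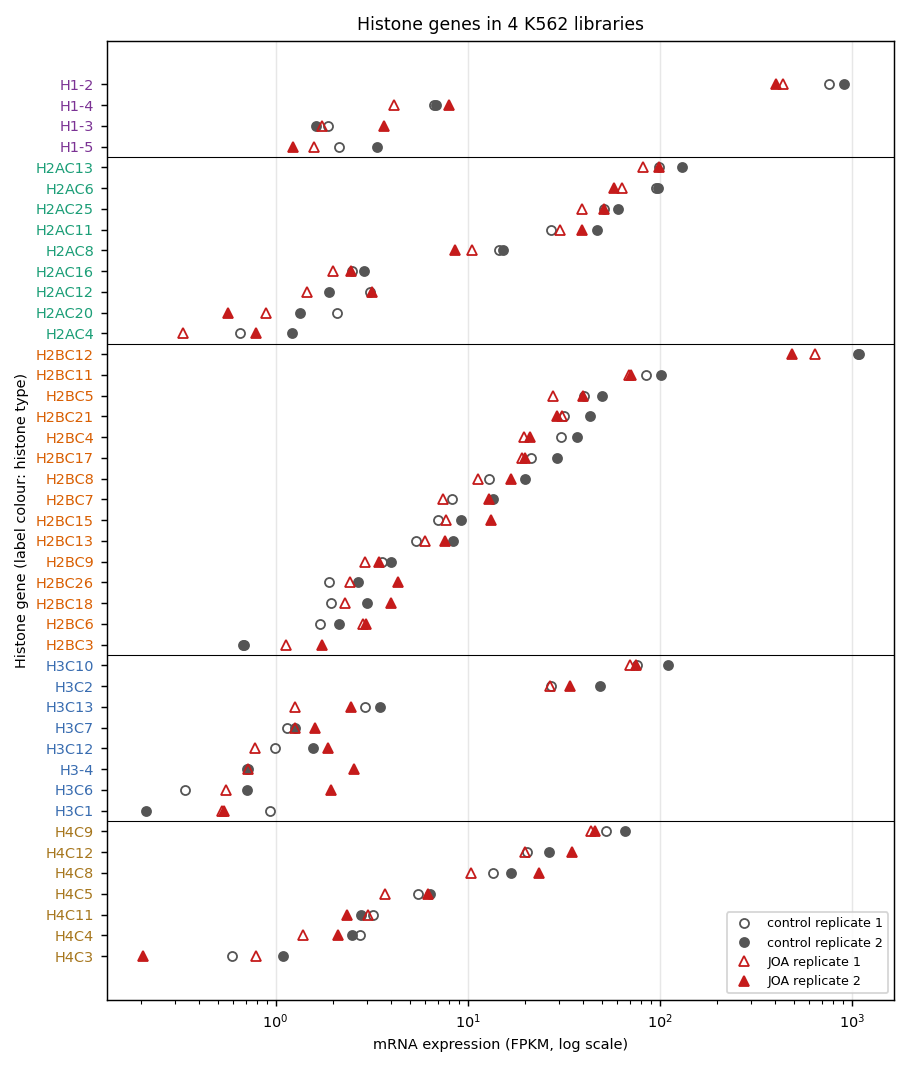
The FPKM of each of the 43 histone genes tested is shown in the 4 K562 libraries on a log axis, grouped by histone type and ordered by mean. Circles are controls and triangles JOA libraries, and both triangles lie left of both circles for 18 genes, H1-2, H2AC6, H2BC12 and H2BC4 among them.

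The 20 genes under 0.5 FPKM had means from 0.0200 to 0.485 FPKM and at most 59 reads in any library, and they were not tested. That maximum came from H4C14, with 4 and 5 reads in the controls and 3 and 59 with JOA. JOA replicate 2 stood alone. For H4C14, 97.5% of the 50-base stretches are shared with another histone gene. H4C15, a near-identical copy, had 36 and 10 reads in the controls and 9 and 9 with JOA. H2AC18 and H2AC19, a duplicated pair on chromosome 1, had 1 to 4 reads in every library and shared 100% and 97.1% of their stretches. In all, 11 of the 63 genes shared over 50% of their stretches, 3 of them among the 43 tested, and 11 had an overlapping gene, 5 of them tested. Which reads the counting dropped for such copies is not given in the sources used here.

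Neighbouring H2A and H2B genes are often transcribed away from each other from a common stretch of DNA, and 10 such pairs, with starts at most 1000 bases apart, were found among the 63. Levels within a pair ranged from similar, as for H2AC8 and H2BC8 with control means of 14.9 and 16.4 FPKM, to very unequal. H2AC12 and H2BC12 start 330 bases apart, and the control means were 2.51 FPKM for H2AC12 and 1080 FPKM for H2BC12. With JOA, H2AC12 stood at 2.33 FPKM and H2BC12 at 564 FPKM, and the log2 fold change of H2AC12 was -0.13 ± 0.38. In the pair H2AC13 and H2BC13 the order was the opposite, with control means of 115 FPKM for the H2A gene and 6.87 FPKM for the H2B gene. H2AC6 and H2BC4, whose shared upstream stretch is printed above, start 218 bases apart and had the like log2 fold changes of -0.66 and -0.71. H2AC8 and H2BC8 had -0.62 and -0.21, and H2AC25 and H2BC26 of the HIST3 cluster had -0.31 and 0.46. The differences between partners were not tested.

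**Figure D5:**
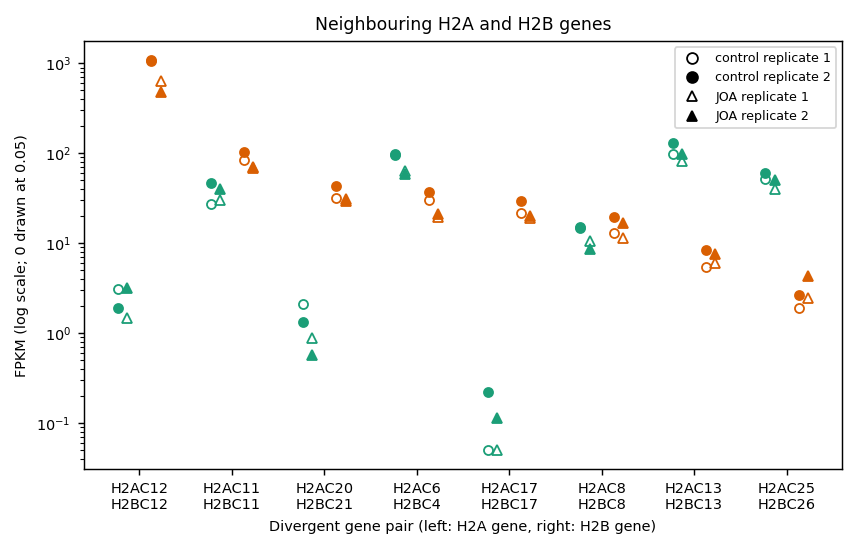
The 8 divergent pairs in which the H2B gene was tested are shown with the FPKM of each library on a log axis, the H2A gene on the left and the H2B gene on the right of each pair. H2BC12 lies more than 100-fold above H2AC12 in both conditions, and H2AC6 and H2BC4 are both lower in the JOA libraries.

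By gene cluster, the 36 HIST1 genes tested had a median log2 fold change of -0.22, the 4 HIST2 genes -0.49 and the 3 HIST3 genes 0.46, where only H2AC25 of HIST3 was negative. H2AC25 was at 51.4 and 60.7 FPKM in the controls and 39.6 and 51.1 FPKM with JOA. These values did not overlap by a narrow margin (log2 fold change -0.31 ± 0.17, limma adjusted p = 0.375). The medians of the kinds of gene model lay close together. The 16 genes tested with a coding part only had -0.31, the 16 with a poly(A) signal at a transcript end had -0.25 and the 11 with other untranslated bases had -0.21.

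Genes that make and process histone mRNA lay on both sides of 0. Of 25 such genes, all tested, 13 were negative and 12 positive, with a median of -0.0071 (0.09 with TPM and -0.15 with median-ratio scaling), and none was past the unadjusted rule, where 2.38% of all genes were lower and 5.38% higher by it. SLBP, which binds the stem-loop, was at 69.3 and 59.8 FPKM in the controls and 60.7 and 44.5 FPKM with JOA. Its groups overlapped (log2 fold change -0.31 ± 0.18, limma adjusted p = 0.405). NPAT, the activator of histone gene transcription in S phase, was at 6.87 and 7.07 FPKM in the controls and 7.82 and 7.76 FPKM with JOA, above both controls by a small margin (log2 fold change 0.15 ± 0.11). CASP8AP2, a partner of NPAT in the histone locus body, had a log2 fold change of 0.04 ± 0.12. The lowest was LSM10, a subunit of the U7 particle, at 24.5 and 20.5 FPKM in the controls and 16.9 and 16.3 FPKM with JOA. The highest was MIF4GD, an SLBP-binding factor in histone mRNA translation, at 11.6 and 12.1 FPKM in the controls and 15.0 and 19.7 FPKM with JOA. Neither overlapped between groups, with log2 fold changes of -0.42 ± 0.13 for LSM10 and 0.52 ± 0.16 for MIF4GD (limma adjusted p = 0.262 each).

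Histone variant genes, whose mRNA has a poly(A) tail and is made outside S phase too, had a median log2 fold change of -0.20, and the 8 tested of 12 were all negative, except that CENPA and MACROH2A1 turned positive with TPM scaling. H2AX, the variant phosphorylated at DNA breaks, was the lowest and the 1 member past the unadjusted rule (2.38% of all genes were lower by it). It was at 172 and 136 FPKM in the controls and 90.9 and 93.1 FPKM with JOA. Both JOA libraries were below both controls (log2 fold change -0.73 ± 0.14, limma adjusted p = 0.236). The nearest to 0 was MACROH2A1 (log2 fold change -0.05 ± 0.14). H2AX is known to give both stem-loop and polyadenylated mRNA, as the replication-dependent genes do.

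Histone chaperones and modifiers of new histones had a median of -0.04 (0.05 with TPM scaling) over 24 genes tested of 25. They ran from -0.37 for TONSL to 0.29 for KAT7. None was past the unadjusted rule, by which 2.38% of all genes were lower and 5.38% higher. The 28 genes of DNA synthesis had a median of -0.21, with 20 negative (18 to 26 under other scalings). Of the 28, 14 were below both controls in both JOA libraries (18.3% of all genes were). These 28 all averaged at least 10 FPKM. Of all genes from 5 to 20 FPKM, 19.1% were below both controls, and of those of 20 FPKM or more, 38.8%. DNA synthesis genes below both controls numbered 8 with TPM, 22 with median-ratio and 11 with quantile scaling, where 11.2%, 30.1% and 25.2% of all genes were below. RRM2, a subunit of ribonucleotide reductase, was the lowest and the 1 gene of this list past the unadjusted rule (2.38% of all genes were lower by it). It was at 18.3 and 15.5 FPKM in the controls and 12.7 and 7.85 FPKM with JOA. Its groups did not overlap (log2 fold change -0.72 ± 0.25, limma adjusted p = 0.270). RFC1, of the clamp loader, was the highest, with a log2 fold change of 0.22 ± 0.10. The DNA synthesis genes and the histone genes are both known to be induced at the entry into S phase, and a part of the cell cycle in these values was not tested. Their medians (-0.21 and, for the 43 histone genes, -0.23) come from unlike levels. The DNA synthesis genes all averaged at least 10 FPKM, whereas 20 of the 43 histone genes were under 5 FPKM. With quantile scaling the medians were -0.14 and -0.25.

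Other RNA without a poly(A) tail was measured to see how much of it these libraries held. Of 28 such RNAs listed, 12 were in the table and 7 were tested, with log2 fold changes from -0.93 to 0.66 and 4 of 7 negative. RN7SL2, the most abundant and an RNA of the signal recognition particle, was at 111 and 35.9 FPKM in the controls and 79.8 and 51.7 FPKM with JOA. Its controls spread more widely than the group means differed. SNORA73B, the lowest, was at 23.8 and 23.2 FPKM in the controls and 14.4 and 10.2 FPKM with JOA, below both controls. The capture of untailed RNA as a part of the histone values was not tested beyond these levels.

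RNA of the mitochondrial genome and immediate early genes were looked at as signs of RNA quality and handling. All 13 mitochondrial mRNAs were negative, with a median of -0.49 (12 with TPM and 8 with quantile scaling). Of the 13, 11 were below both controls in both JOA libraries (18.3% of all genes and 38.8% of those averaging 20 FPKM or more). With quantile scaling, the median was -0.17 and 5 were below both controls, where 25.2% of all genes were. Their sum was 57061 and 62297 FPKM in the controls and 46651 and 42558 FPKM with JOA. Of 11 immediate early genes tested, 6 were negative with a median of -0.09 (0.0097 with TPM scaling), and EGR1 (log2 fold change -1.26) and JUNB (-0.68) were lower by the unadjusted rule (2.38% of all genes). The lower mitochondrial and erythroid mRNA moved with the lower histone sum in the same JOA libraries, and their part in the histone values was not tested.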

How the data were processed

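Values of 4 K562 libraries (2 control, 2 JOA) were analysed. The deposited unit is FPKM, made by the authors per gene from TruSeq Stranded mRNA libraries. Trimmomatic, HISAT2, Cufflinks and HTSeq are named in the submitters' processing notes, as are hg38 and mm10, and the role of each tool, its version and the annotation release are not given in the sources used here. The methods name TPM, but the columns sum to between 279624 and 301985. FPKM depends on the gene model: where a model holds the coding part only, reads beyond it are left out. Reads were recovered with GENCODE 29 exon lengths. Of genes under 1000 reads, 96.2% to 96.3% came out whole within 0.05 reads.

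The 15635 genes averaging 0.5 FPKM or more were fitted with limma (version 3.58.1, R 4.3.3) after a log2 transform with a pseudocount of 0.5 FPKM. The test was two-sided and used a variance trend and Benjamini-Hochberg adjustment over all of them. The script was tested on simulated data. The unadjusted rule follows the study's methods. Replicate numbers were not taken as pairs. Sums were compared with exact permutation tests. Counts of the libraries of a group differed by more than sampling noise, so each was counted as a library of its own. Whether they share a culture or an RNA sample is not stated.

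The genes and lists were chosen with earlier results of these data known. Genes given in every library are those past the unadjusted rule, the most abundant of each histone type and those with the highest and the lowest log2 fold change of a type or list. In related lists, SLBP, NPAT and CASP8AP2 were added. H1-4, H2BC6, H2BC11, H2AC25, H3-4 and H4C14 were chosen after their values were seen. H2BC12L was left out for its trailing letter. Symbols were matched for 34749 of 35141 genes (98.9%). Alternatives covered the pseudocount, filter, scaling, variance model, voom on recovered reads, a replicate block and each library left out. Tables and plots used Python 3.11.15, pandas 2.3.3, numpy 2.4.6 and matplotlib 3.10.9. Each ± value is the limma standard error or an SD between libraries.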

Additional observations from a re-analysis of the deposited data

How the results depend on the processing

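The count of histone genes called at a limma adjusted p under 0.05 was 0 under every alternative that kept all 4 libraries. Over all genes it was 0 too, except for 4 of 7812 with a stricter filter of 5 FPKM and 3 of 15590 with voom on recovered reads. Genes past the unadjusted rule and higher with JOA numbered 1 in the main analysis. They numbered 0 with a pseudocount of 1 FPKM, without a filter on low values, with a filter of 5 FPKM and with quantile normalization, and 2 with TPM scaling. With a library left out, they numbered 0 to 7, and those lower numbered 5 to 9. Genes above both controls numbered 6 of 63 without a filter, 0 of 23 with a filter of 5 FPKM and 4 with TPM scaling. The share of all genes above both is given for the main analysis (36.8%) and not for these settings. With a library left out, 20 to 29 were below, where 25.3% to 30.9% of all genes were. Those above ranged from 2 without JOA replicate 2 (47.2% of all genes) to 14 without JOA replicate 1 (53.3%). Median-ratio scaling gave a median log2 fold change of -0.48 for H2A and a log2 ratio of the summed FPKM of -0.87, against -0.73 in the main analysis. The H2A median was -0.53 to -0.13 with a library left out, and the log2 ratio of the sum was -0.82 to -0.63. The log2 fold change of H2AC11 became positive with TPM scaling (0.054), with quantile normalization (0.0062), without control replicate 2 (0.35) and without JOA replicate 1 (0.15), and ranged from -0.43 to 0.35 with a library left out. That of H4C12 became negative without control replicate 1 (-0.0084) and without JOA replicate 2 (-0.22), and ranged from -0.22 to 0.57. The cause was not tested. The median of all genes moved from 0.096 to 0.20 with TPM scaling, to -0.03 with median-ratio scaling and to 0.0027 with quantile normalization. The median of the histone genes relative to it was -0.33 in the main analysis and -0.37, -0.32 and -0.25 in those. With 2 libraries per group, the replicate block gave 0 calls among the histone genes and among all genes, and a smallest limma adjusted p of a histone gene of 0.0902. By the unadjusted rule it gave 8 histone genes lower and 1 higher, where 428 of all genes were lower and 1064 higher. The deviations of same-numbered libraries correlated at 0.19 across genes, and the libraries share a number only. Where an arm was left with 1 library, that library was assumed to vary like the other group. Depth limits the genes under 10 reads in every library, 18 of the 63.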
